A study of Homo sapiens with 2 samples.

Results

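The genes described here belong to families of enzymes that remove methyl groups from lysines or add them. They are the protein-coding genes whose symbol is KDM, KMT or SETD followed directly by a digit, 37 of the 58884 gene IDs in the count files. The members were chosen by symbol alone, but the family was picked for description with the ratios of these same libraries known, so its counts and medians are given as a description, without a test. By symbol, the 37 are 20 demethylases (KDM) and 17 methyltransferases (KMT and SETD). For 7 of them no histone lysine was assigned as a target.

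RNA came from T24/R, an established adherent epithelial line of the urinary bladder cultured in RPMI medium with serum. The labels do not say how it differs from the urothelial carcinoma line T24, and name no other agent or genetic change. One group received DMSO, the solvent, and the other 1600 nM THZ1, both for 6 h. THZ1 is a covalent inhibitor of the transcriptional kinase CDK7 that also reaches the related kinases CDK12 and CDK13. With 1 library per group there was no replicate, every difference below compares these 2 libraries only, and no p-value is given.

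Methyl groups on histone tails mark the state of genes. Methylation of histone H3 at lysine 4 marks promoters and enhancers, lysine 36 the bodies of transcribed genes, and lysines 9 and 27 repressed chromatin. Most methyltransferases carry a SET domain, which transfers the methyl group from S-adenosylmethionine. KDM1A and KDM1B are flavin-dependent oxidases, and the other demethylases carry a JmjC domain that uses iron and 2-oxoglutarate. Some genes named SETD have other substrates. SETD3 methylates a histidine of actin, KMT2E is regarded as inactive on histones, and the activity of SETD5 is debated. Mutations of KMT2D, KMT2C and KDM6A are frequent in urothelial carcinoma.

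The libraries held 18445831 counts (DMSO) and 18313827 counts (THZ1). Ratios are log2 of THZ1 over DMSO, from counts scaled with trimmed-mean (TMM) factors, and are followed by 95% intervals that cover counting error only. Testing took in the 12457 genes that reached 30 counts in either library. A call of lower or higher required a ratio of 2-fold or more and an interval that did not include 0 on the log2 scale. Of the markers fixed for the labelled tissue, the epithelial keratin gene KRT18 had 696 and 494 counts in DMSO and THZ1. EPCAM had 0 and 3 counts, CDH1 2 and 3, and the uroplakin genes UPK1B and UPK3A 0 in both, so these defining markers were at or near 0. Of 12 urothelial markers, 2 reached 30 counts in DMSO, FOXA1 with 129 counts there and 21 in THZ1 and TP63 with 61 and 34, and the list summed to 10.8 CPM in DMSO and 5.17 in THZ1. Of 6 fibroblast markers, 2 did so in DMSO, COL1A1 with 30 and 20 counts and LUM with 34 and 69, and the list summed to 3.71 and 6.49 CPM. Of the 6 epithelial markers, 2 reached 30 counts, KRT18 and KRT8 (77 and 100 counts), and the list summed to 37.3 and 38.9 CPM. KRT18 held 696 of the 794 counts of that list in DMSO. The marker sums thus differed between the libraries, and their part in the ratios below was not tested. Endothelial markers summed to 3 and 4 counts and leukocyte markers to 5 and 1.

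Promoter sequences are shown for 3 members with low ratios and for 1 with a ratio above 0, because the data compare how much RNA each gene held. Each is the 250 bases before the RefSeq gene start (GRCh38.p14), 5′ to 3′ on the gene's strand, from a member whose window lies outside every exon that GENCODE 29 gives it. Capitals mark any of 6 motifs on either strand. KDM2A (chr11:67119013-67119262, plus strand), KDM2B (chr12:121581024-121581273, minus strand) and SETD5 (chr3:9397365-9397614, plus strand) were called lower, and KDM6B (chr17:7833967-7834216, plus strand) was not. The RefSeq start of KDM6B lies 5.69 kb from the start of the counted gene in GENCODE 29, so its window may not be the promoter of the transcripts counted, whereas for the other 3 the starts are at most 8 bases apart.
KDM2A: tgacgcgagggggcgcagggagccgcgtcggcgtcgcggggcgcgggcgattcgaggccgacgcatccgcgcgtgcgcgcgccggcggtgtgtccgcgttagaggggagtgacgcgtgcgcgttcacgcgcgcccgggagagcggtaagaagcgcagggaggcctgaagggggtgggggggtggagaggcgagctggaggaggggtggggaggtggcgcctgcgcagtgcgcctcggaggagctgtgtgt
KDM2B: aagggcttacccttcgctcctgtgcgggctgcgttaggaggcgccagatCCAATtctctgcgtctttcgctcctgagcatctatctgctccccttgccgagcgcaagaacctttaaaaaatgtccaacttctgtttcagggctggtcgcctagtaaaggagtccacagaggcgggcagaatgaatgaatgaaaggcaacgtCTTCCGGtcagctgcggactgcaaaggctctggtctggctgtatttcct
SETD5: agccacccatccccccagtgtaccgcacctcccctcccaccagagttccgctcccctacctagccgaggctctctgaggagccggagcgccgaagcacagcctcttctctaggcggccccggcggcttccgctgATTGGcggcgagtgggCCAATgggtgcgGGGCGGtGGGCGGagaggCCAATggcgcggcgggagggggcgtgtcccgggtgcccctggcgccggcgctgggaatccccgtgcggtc
KDM6B: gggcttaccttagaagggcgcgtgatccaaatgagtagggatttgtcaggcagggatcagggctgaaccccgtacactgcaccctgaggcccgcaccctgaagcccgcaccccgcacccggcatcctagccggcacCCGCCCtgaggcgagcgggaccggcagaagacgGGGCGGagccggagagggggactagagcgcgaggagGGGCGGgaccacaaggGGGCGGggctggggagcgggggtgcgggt

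The motifs were the TATA box TATAAA, the CCAAT box CCAAT, the GC box GGGCGG, the ETS core CCGGAAG, the E-box CACGTG and the cyclic AMP response element TGACGTCA. A promoter entry existed for 33 of the 34 tested members, all but SETD1B, and the shares below are over the 250 bases of these. For 6 of the 33 the RefSeq and GENCODE starts were over 1 kb apart. The RefSeq windows set beside the members were not limited to tested or protein-coding genes. Differences from them are thus not shown to be particular to the members. The GC box was in 26 of 33 (78.8%), beside 42.6% of all 35116 RefSeq windows. It was in 7 of the 11 called lower with an entry and in 19 of the 22 others. The CCAAT box was in 12 members (36.4%; 32% of all windows), 5 of them called lower. The TATA box was in 0 members and in 10.7% of all windows, the response element in 0 and 1.65%. The ETS core was in 6 (18.2%; 8.52% of all) and the E-box in 5 (15.2%; 6.34%). The windows were rich in G and C, with a median of 66.8% over members and 58% over all windows. Among those called lower the median was 64% and among the others 68%. The KDM2A window held 40 CpG dinucleotides and none of the 6 motifs, the KDM2B window 13, the SETD5 window 25 and the KDM6B window 21. A match is a match of letters and shows no binding.

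Demethylases and methyltransferases had the same number of genes called lower and medians that lay close together. Of the 34 tested members, 12 were called lower (35.3%) and 0 higher, beside 23.6% lower and 7.51% higher among all tested genes. The 12 were 6 of 17 demethylases (KDM8, KDM2A, KDM4D, KDM5B, KDM2B and KDM4A) and 6 of 17 methyltransferases (SETD1A, SETD5, KMT5C, SETD1B, KMT2B and SETD2). The median ratio was −0.80 for demethylases, which is the value of KDM5A, and −0.82 for methyltransferases, the value of KMT5A. These medians differed by 0.02, and the exact conditional interval of the difference between those 2 genes was −0.11 to 0.16. That interval covers the counting error of the 2 genes only and does not bound the difference between the classes. Ratios were spread more widely among demethylases, from −2.78 to 0.83 with quartiles of −1.72 and −0.11, than among methyltransferases, from −2.42 to 0.48 with quartiles of −1.21 and −0.03. Whether the 2 distributions differ was not tested. In bulk RNA, fewer cells of a kind and less RNA per cell cannot be told apart.

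**Figure D1:**
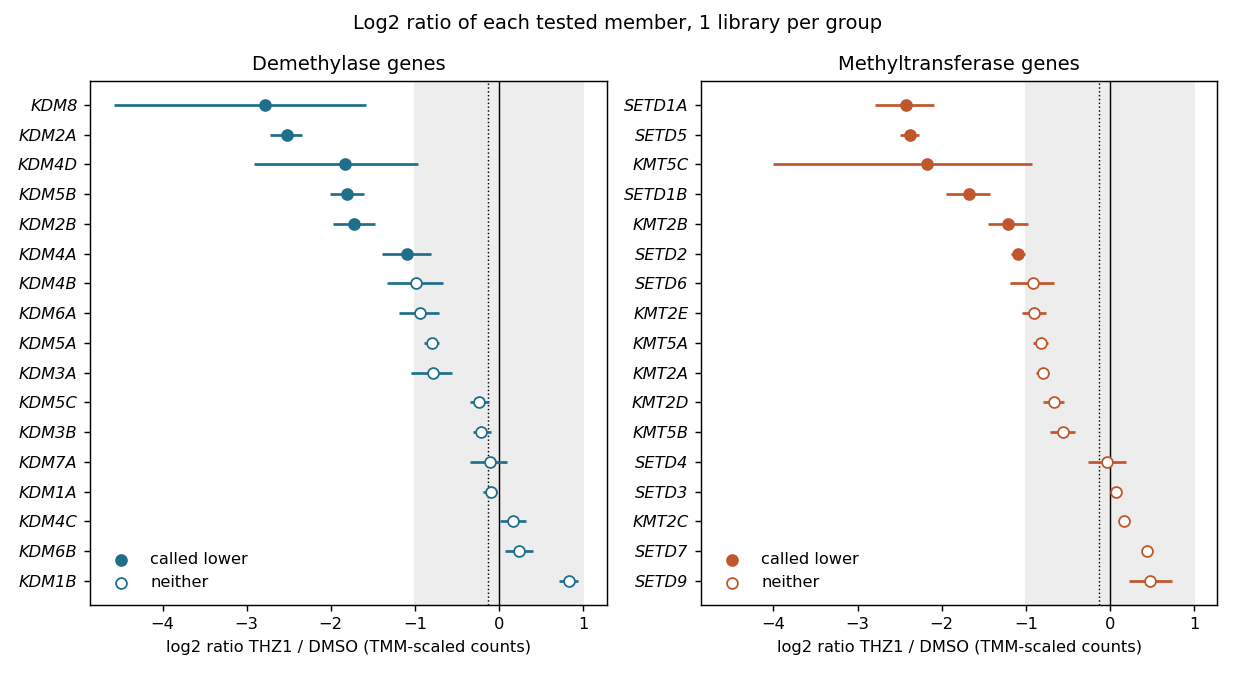
Log2 ratio of THZ1 over DMSO (horizontal axis) for the 17 tested demethylase genes (left) and the 17 tested methyltransferase genes (right), with 95% counting intervals as lines. Filled points were called lower, the grey band spans ratios within 2-fold, and the dotted line is the median of all tested genes at −0.13. Each panel has 6 filled points.

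The median of all 12457 tested genes was −0.13. Relative to it the demethylases stood at −0.67 and the methyltransferases at −0.69, and 24 of the 34 members (12 in each class) lay below it. These relative values do not depend on how the libraries are scaled, whereas the calls do. TMM over the tested genes alone puts all ratios 0.10 higher. KDM4A and SETD2 are then within 2-fold and 10 members are lower, 5 in each class, beside 21.3% of all tested genes. Scaling to total counts shifts ratios by −0.41 and gives 21 lower members (10 demethylases and 11 methyltransferases) beside 34.2% of all tested genes. Scaling to the 13 mitochondrially encoded mRNAs shifts them by −1.59 and gives 33, all but KDM1B, beside 80.3%. Of all called genes 24.1% were higher with TMM, 31.3% with TMM over the tested genes, 7.95% with total counts, 63.3% with the upper quartile and 0.872% on the mitochondrial reference. Over the 6 scalings, 9 members were called lower under each (KDM2A, KDM2B, KDM4D, KDM5B, KDM8, KMT5C, SETD1A, SETD1B and SETD5), and 12 members changed sign.

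**Figure D2:**
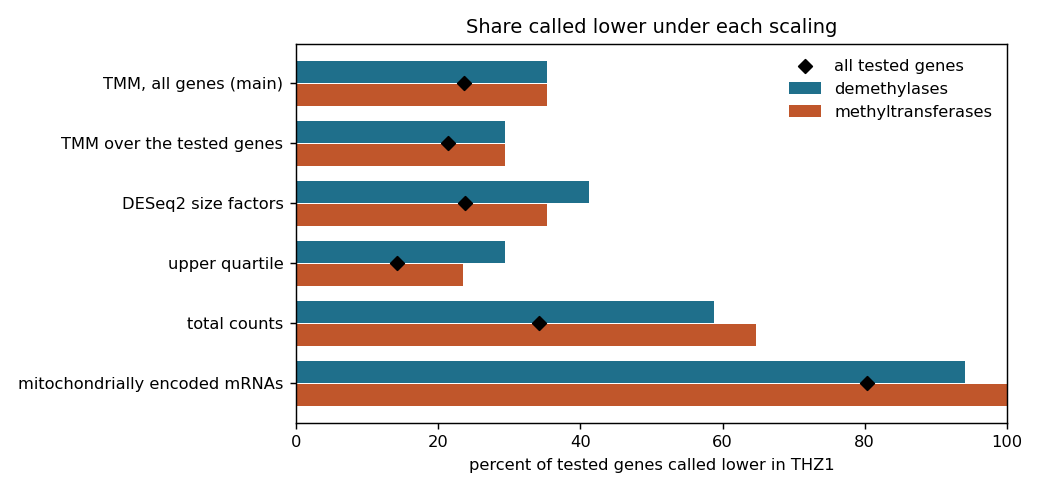
Percent of tested genes called lower (horizontal axis) under 6 scalings (vertical axis), for demethylases and methyltransferases as bars and for all tested genes as diamonds. Under each of these the 2 classes differ by at most 1 gene and both bars end to the right of the diamond, from 35.3% beside 23.6% on the main scaling to 16 of 17 and 17 of 17 genes beside 80.3% on the mitochondrial reference.

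KDM2A and KDM2B remove methyl groups from lysine 36 of histone H3 and bind unmethylated CpG islands through a CXXC zinc finger. KDM2B also brings a variant Polycomb complex to such islands. KDM2A (ENSG00000173120; chromosome 11, 67119269 to 67258087) had 1923 counts in DMSO and 249 in THZ1, a ratio of −2.52 (−2.72 to −2.34), or 5.75-fold lower. It stood at percentile 4.3 of all tested genes, the lowest of the members with over 100 counts. KDM2B (ENSG00000089094; chromosome 12, 121429097 to 121581015) had 715 and 162 counts and a ratio of −1.72 (−1.97 to −1.47). Both paralogues were called lower, KDM2A by 0.81 (0.49 to 1.13) more than KDM2B. Exons of KDM2B share 439 bases with RNF34 on the other strand, which had 1167 and 222 counts, and without a stated strand setting the reads of that stretch cannot be told apart.

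The KDM5 enzymes remove methyl groups from lysine 4 of histone H3. KDM5A (ENSG00000073614) had 3391 counts in DMSO and 1454 in THZ1, a ratio of −0.80 (−0.89 to −0.71). Its exons share 182 bases with CCDC77 on the other strand, which had 534 and 139 counts. KDM5B (ENSG00000117139; chromosome 1, 202724495 to 202809470) had 1166 and 248 counts and a ratio of −1.81 (−2.01 to −1.61). KDM5C (ENSG00000126012), on the X chromosome, had 1602 and 1014 counts and a ratio of −0.24 (−0.35 to −0.12), which turns to 0.30 with the upper quartile. The 3 paralogues were spread over 1.57 (1.34 to 1.81), with KDM5B lowest, and only KDM5B passed the rule. KDM5B made up 8.85% of the summed per-length level (TPM) of the 3 genes in DMSO and 3.89% in THZ1, while the part of KDM5C went from 36.1% to 47.2%. The annotated exons of KDM5B sum to 25882 bases, beside 12091 for KDM5A and 8727 for KDM5C, which lowers its share in both libraries. KDM5D lies on the Y chromosome and its level is not given.

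The flavin-dependent pair also acts on lysine 4. KDM1A, the catalytic subunit of the CoREST complex, had 2772 and 1925 counts and a ratio of −0.10 (−0.19 to −0.02). KDM1B had 1065 counts in DMSO and 1409 in THZ1 and the highest ratio of all members, 0.83 (0.71 to 0.94), at percentile 88.2 and within 2-fold. KDM1B exceeded KDM1A by 0.93 (0.79 to 1.07) whatever the scaling, but its own sign does not hold, with 1.36 by the upper quartile and −0.76 on the mitochondrial reference. Its part of the KDM1 TPM was 27.2% in DMSO and 41.6% in THZ1.

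KDM3 and KDM4 enzymes act on lysine 9, and KDM4A to KDM4C also on lysine 36. KDM4A (ENSG00000066135) had 396 and 138 counts and a ratio of −1.09 (−1.39 to −0.81), the member just inside the 2-fold limit together with SETD2. KDM4B, with 281 and 105 counts, was just outside at −0.99 (−1.33 to −0.67), and the 2 genes differed by 0.10 (−0.34 to 0.54), so this boundary separates values that counting error cannot tell apart. KDM4C, with 759 and 635 counts, stood apart at 0.17 (0.01 to 0.32), a sign that turns with total counts (−0.25). It exceeded KDM4A by 1.26 (0.94 to 1.59) and its part of the KDM4 TPM was 38.9% in DMSO and 61.9% in THZ1. KDM4D, whose gene has few exons, had 59 and 12 counts and a ratio of −1.83 (−2.91 to −0.96). Its neighbours KDM4E and KDM4F had 0 counts in both libraries, so at this depth up to 3 counts are allowed, which is 0.141 CPM for DMSO and 0.189 CPM for THZ1, and no ratio is given. KDM4D, KDM4E and KDM4F are close copies of each other and can share or lose reads. KDM3A, with 481 and 207 counts, had a ratio of −0.79 (−1.04 to −0.56), and KDM3B, with 1824 and 1178, −0.21 (−0.31 to −0.10). The pair differed by 0.58 (0.32 to 0.85).

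KDM6A and KDM6B remove methyl groups from lysine 27, the mark of Polycomb repression. KDM6A, a subunit of the KMT2C and KMT2D complexes, had 518 and 201 counts and a ratio of −0.94 (−1.19 to −0.71). KDM6B, an enzyme induced by many inflammatory and developmental signals, had 613 and 539 counts and a ratio of 0.24 (0.07 to 0.41), or −0.18 with total counts. Neither passed the rule, and KDM6B exceeded KDM6A by 1.18 (0.89 to 1.48). KDM7A, which acts on lysines 9 and 27, had 424 and 292 counts and a ratio of −0.11 (−0.34 to 0.10). KDM8, known as a protein hydroxylase as well, had the lowest ratio of all members at −2.78 (−4.58 to −1.58), but on 50 and 5 counts.

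**Figure D3:**
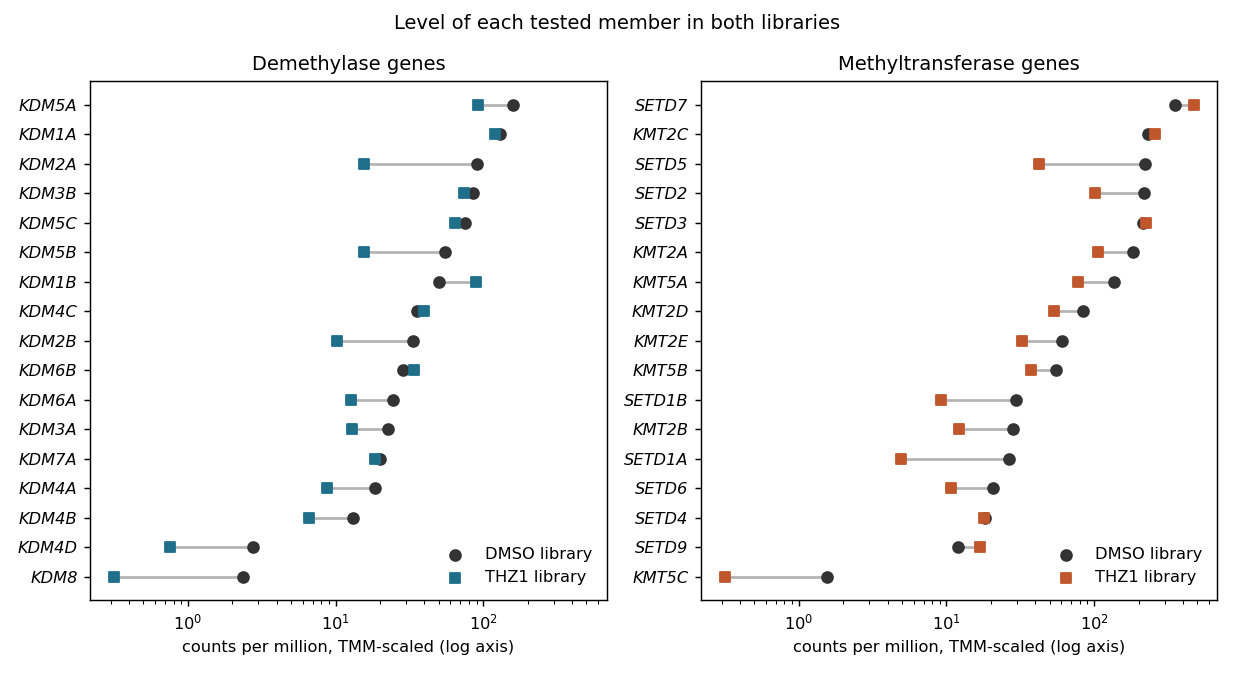
Level of each tested member in CPM scaled with TMM factors (log horizontal axis), in the DMSO library (circles) and the THZ1 library (squares), with 1 library per point. KDM2A moves from 90.4 to 15.7 and SETD5 from 221 to 42.2, while KDM1B moves from 50 to 88.8 and SETD7 from 350 to 474.

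Among the methyltransferases, the pair SETD1A and SETD1B had low ratios. They are the catalytic subunits of the SET1 COMPASS complexes, which lay down most trimethylation of lysine 4 at promoters. SETD1A (ENSG00000099381; chromosome 16, 30957294 to 30984664) had 564 counts in DMSO and 78 in THZ1, a ratio of −2.42 (−2.79 to −2.09), or 5.36-fold lower. SETD1B (ENSG00000139718; chromosome 12, 121804180 to 121832584) had 628 and 146 counts and a ratio of −1.68 (−1.95 to −1.42). SETD1A was lower than SETD1B by 0.75 (0.31 to 1.20). SETD1B lies 223 kb from KDM2B on chromosome 12, and both were called lower.

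The KMT2 family methylates lysine 4 as well, KMT2A and KMT2B at promoters and KMT2C and KMT2D at enhancers. KMT2B (ENSG00000272333), with 595 and 192 counts, was called lower at −1.21 (−1.45 to −0.97). KMT2A had 3915 and 1678 counts and a ratio of −0.80 (−0.88 to −0.72), KMT2D 1800 and 845 with −0.67 (−0.79 to −0.55), and KMT2E 1298 and 517 with −0.90 (−1.05 to −0.76). KMT2C stood apart with 4907 counts in DMSO and 4107 in THZ1 and a ratio of 0.17 (0.11 to 0.23), which becomes −0.25 with total counts. KMT2C exceeded its closest paralogue KMT2D by 0.83 (0.70 to 0.97), and KMT2B by 1.37 (1.13 to 1.62). It made up 37.2% of the KMT2 TPM in DMSO and 54.6% in THZ1. The 5 annotated pseudogenes of KMT2C had 0 counts in both libraries. Exons of KMT2E and SRPK2 (792 and 481 counts) share 98 bases on opposite strands, and those of KMT2B and IGFLR1 (19 and 7 counts) 78 bases.

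SETD2 trimethylates lysine 36 while travelling with elongating RNA polymerase II. SETD2 (ENSG00000181555) had 4644 counts in DMSO and 1622 in THZ1 and a ratio of −1.09 (−1.18 to −1.01), 2.14-fold lower. The demethylases of the same lysine were KDM2A, KDM2B, KDM4A, KDM4B and KDM4C, of which 3 of 5 were called lower, with a median of −1.09, beside 23.6% of all tested genes. Both KDM4A among them and SETD2 were within 2-fold with TMM over the tested genes and with the upper quartile. SETD5 (ENSG00000168137; chromosome 3, 9397615 to 9479240), a chromatin regulator with a SET domain, had 4693 and 670 counts and a ratio of −2.38 (−2.50 to −2.27), or 5.22-fold lower. It had 82.8 TPM in DMSO and stood at percentile 5.31 of all tested genes.

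The KMT5 enzymes act on lysine 20 of histone H4, KMT5A adding the first methyl group and KMT5B and KMT5C the next. KMT5A had 2926 and 1234 counts and a ratio of −0.82 (−0.92 to −0.73), and KMT5B 1178 and 595 with −0.56 (−0.71 to −0.42). KMT5C, with 33 and 5 counts, was called lower at −2.18 (−4.01 to −0.93) on few reads. Its differences from KMT5A (1.36, 0.11 to 3.19) and KMT5B (1.62, 0.36 to 3.46) excluded 0 as single pairs but not with Bonferroni intervals. A processed pseudogene of KMT5A, KMT5AP2, had 31 and 14 counts, and reads of the 2 can be mixed.

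The remaining SETD genes were all within 2-fold. SETD7, a methyltransferase of lysine 4 and of many proteins outside chromatin, was the member with the most counts, 7442 in DMSO and 7520 in THZ1, with a ratio of 0.44 (0.39 to 0.48). SETD9, a little-studied gene, had 256 and 267 counts and a ratio of 0.48 (0.23 to 0.74). SETD7 and SETD9 turn to −1.15 and −1.10 on the mitochondrial reference. SETD3 had 4574 and 3583 counts and a ratio of 0.07 (0.01 to 0.13), and SETD4 390 and 284 with −0.03 (−0.26 to 0.19). SETD3 was the most abundant member per length in DMSO at 168 TPM, followed by KMT5A at 122, SETD7 at 102 and KDM1A at 97.2. SETD6, which methylates the NF-kappaB subunit RELA, had 437 and 172 counts and a ratio of −0.92 (−1.19 to −0.66). Its exons share 1086 bases with CNOT1 on the other strand, which had 7123 and 5670 counts, so the value of SETD6 is uncertain.

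Members of a subfamily, meaning the same symbol number and not sequence likeness, could be compared without any choice of scaling. The difference between 2 ratios of the same libraries does not depend on it. Of the 27 pairs within a subfamily, 22 had an interval that excluded 0, and 17 did so with Bonferroni intervals over the 27. The share among pairs of genes outside the subfamilies was not computed. These intervals cover counting error only and are narrow where counts are high, so 22 and 17 are no result about subfamilies. The largest of these 17 were KDM4C over KDM4D (1.99), KDM5C over KDM5B (1.57), KMT2C over KMT2B (1.37) and KDM4C over KDM4A (1.26). Pairs whose interval held 0 were KDM4A with KDM4B, both of these with KDM4D, and KMT2A with KMT2D and with KMT2E. KMT2A and KMT2D differed by 0.13 (−0.01 to 0.28), which bounds their difference and does not show that they are equal.

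**Figure D4:**
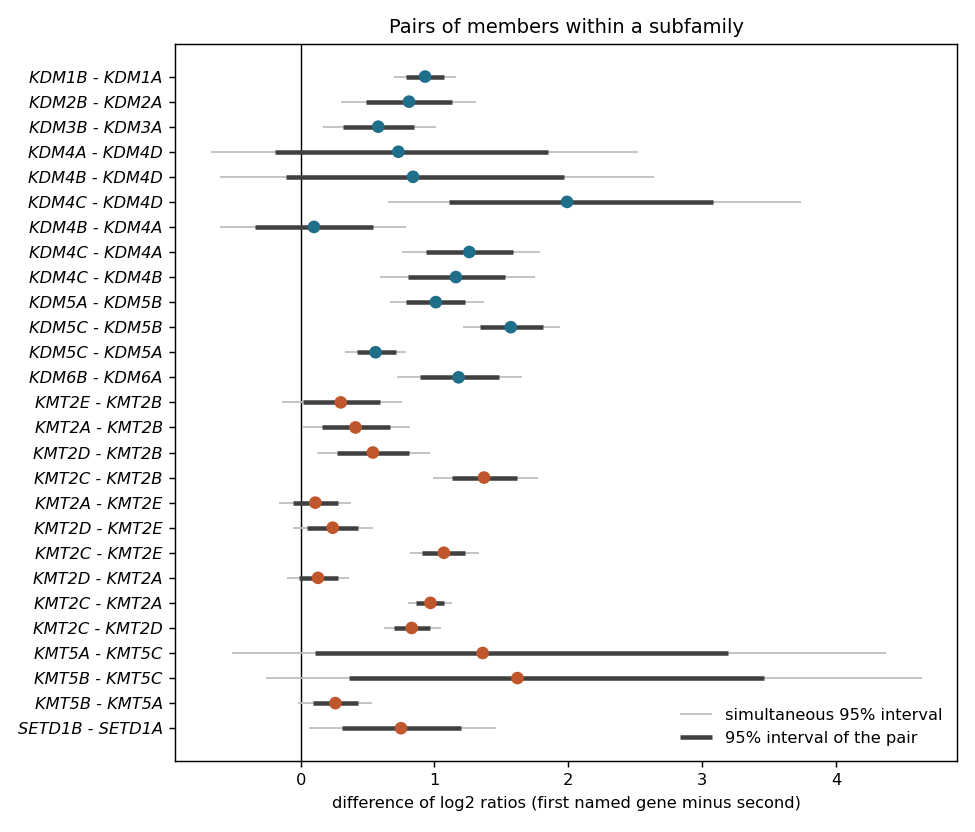
Difference between the log2 ratios of 2 members of a subfamily (horizontal axis) for the 27 pairs (vertical axis), the gene named first minus the second, with the 95% interval of the pair (thick) and the Bonferroni 95% interval over all pairs (thin). Points are blue for demethylases and orange for methyltransferases, and the 3 pairs of KMT2C with KMT2B, KMT2E and KMT2A lie at 1.37, 1.07 and 0.97.

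Grouped by residue, with enzymes of 2 residues counted under both, several writers and several erasers were tested among the members only for lysine 4 of H3, and there their ratios overlapped. For lysine 4 of H3, 3 of 7 methyltransferases (SETD1A, SETD1B and KMT2B) and 2 of 6 tested demethylases (KDM2B and KDM5B) were called lower, with medians of −0.80 and −0.52. These shares were 42.9% and 33.3%, beside 23.6% of all tested genes. Summed per length, the lysine 4 demethylases stood at 1.04 times the methyltransferases in DMSO and 0.973 times in THZ1. That near-constant ratio rests on SETD7, without which it was 1.87 in DMSO and 2.49 in THZ1. For lysine 9, 2 of 8 tested demethylases were called lower (25%, near the share over all tested genes; median −0.50), and for lysine 27, 0 of 3 (median −0.11). Over all members the summed TPM of demethylases was 0.511 times that of methyltransferases in DMSO and 0.543 times in THZ1. These sums depend on the annotated exon length of each gene.

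Neither level nor gene length ordered the ratios closely. Across the 34 members Spearman's rho between the DMSO level in TPM and the ratio was 0.40 (0.50 over demethylases and 0.38 over methyltransferases). Across 10881 tested protein-coding genes it was 0.21. These are descriptions over genes of the same 2 libraries, and the DMSO count enters both axes. The rho with gene span was 0.13 over members (−0.01 over demethylases and 0.33 over methyltransferases) and 0.08 over protein-coding genes. The median span was 41.9 kb for the members called lower and 75.8 kb for the others, beside 34.6 kb for tested protein-coding genes. SETD1A at 27.4 kb and KDM2A at 139 kb were both far below 0, and KMT2C at 301 kb and KDM4C at 455 kb, the longest members, were both at 0.17. Whether level or span has a part in the ratios was not tested.

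**Figure D5:**
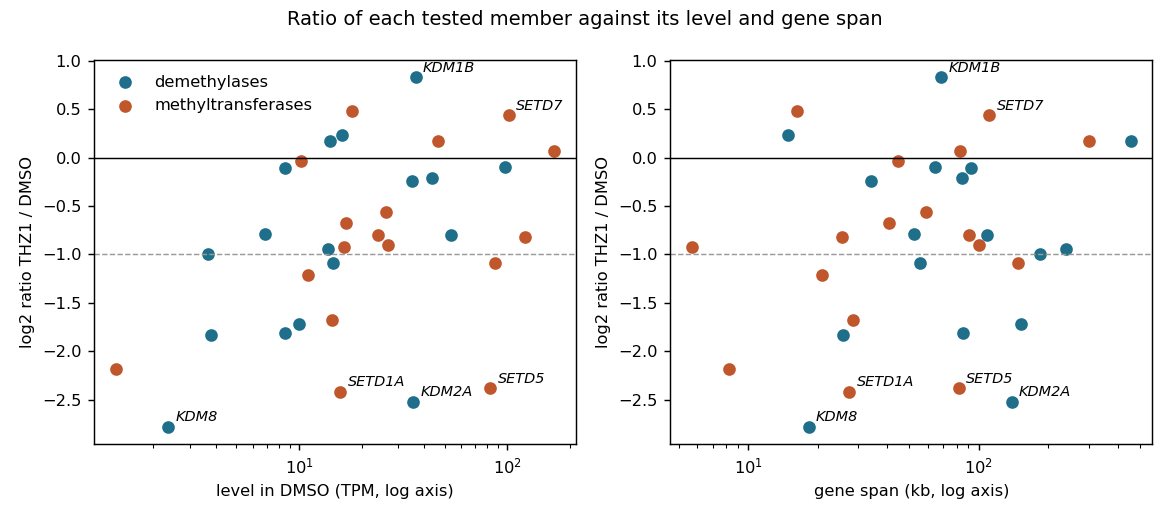
Log2 ratio of each tested member (vertical axis) against its level in the DMSO library in TPM (left, log axis) and its gene span in kb (right, log axis), with demethylases in blue and methyltransferases in orange. The dashed line marks a ratio of −1, and named genes include KDM2A and SETD5, which combine ratios under −2 with levels of 35.3 and 82.8 TPM.

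Among lysine methyltransferase genes and JmjC genes listed under other symbols, SUV39H1 and RIOX1 reached lower ratios than any member, whose lowest was −2.78. Of 20 tested methyltransferase genes from the list, 7 were called lower (35%) and 0 higher (median −0.80), beside 23.6% lower over all tested genes, with SUV39H1, which methylates lysine 9 in heterochromatin, at −4.72 (265 and 7 counts), MECOM at −1.51 and NSD1, which acts on lysine 36, at −1.45. Of 11 tested JmjC genes outside the KDM symbols, 5 were lower (45.5%) and 0 higher (median −0.96), with RIOX1 at −3.22 (143 and 11 counts), JMJD1C at −1.87 and HSPBAP1 at −1.22. With TMM over the tested genes 3 of these 11 were lower.

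Of the partner subunits, only the COMPASS list held higher calls on the main scaling. Of its 15 genes, 5 were lower (33.3%) and 2 higher (13.3%; median −0.56), beside 23.6% lower and 7.51% higher over all tested genes. WDR82, the subunit that ties SETD1A and SETD1B to RNA polymerase II, was lower at −2.46 (−2.61 to −2.31; 3154 and 428 counts), as were NCOA6 at −1.58 and the core subunit RBBP5 at −1.38. PSIP1, which tethers KMT2A to chromatin, was higher at 1.25 (1.18 to 1.31; 2760 and 4886 counts), and the core subunit DPY30 at 1.03 (0.88 to 1.18). Neither of the 2 was called with total counts (0.83 and 0.62) or on the mitochondrial reference (−0.34 and −0.56). Of 11 tested CoREST genes, the partners of KDM1A, 2 were lower (RCOR1 2.68-fold and RCOR3 2.01-fold lower) and 0 higher, with a median of −0.41. This 18.2% lay below the share over all tested genes, and with TMM over the tested genes RCOR3, at −0.90, was no longer called. Of 10 PRC2 subunits, partners of the lysine 27 methyltransferases EZH1 and EZH2, 4 were lower (40%) and 0 higher (median −0.43), including MTF2 at −3.15 (2489 and 209 counts), EED at −1.45 and AEBP2 at −1.22.

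Other classes of histone enzymes gave a wide range of shares. Acetyltransferases had 7 of 11 lower and 1 higher (median −1.26), with KAT5 at −2.40, EP300 at −2.25 (3359 and 528 counts) and KAT6A at −2.25 lower and KAT2B higher at 1.05. KAT2B was not called with total counts (0.64) or on the mitochondrial reference (−0.53). Deacetylases had 4 of 16 lower and 0 higher (median −0.19), including SIRT1 at −1.96, HDAC7 at −1.53 and SIRT6 at −1.10, and with TMM over the tested genes 2 were lower and 1 higher, with SIRT6, at −0.99, no longer called. Arginine methyltransferases had 2 of 8 lower and 0 higher (median −0.22), PRMT6 at −2.16 and PRMT9 at −1.67. With the upper quartile the medians of the CoREST, PRC2, arginine methyltransferase and deacetylase lists were 0.12, 0.11, 0.32 and 0.35. The 35.3% of the lysine methylation members thus stood between the 25% of deacetylases and the 63.6% of acetyltransferases, with 23.6% over all tested genes.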

How the data were processed

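Poly(A) RNA libraries (KAPA mRNA HyperPrep, per the labels' protocols) of 1 DMSO and 1 THZ1 culture were grouped by their treatment label. The authors deposited unnormalized read counts for each gene, made with Trimmomatic 0.38, HISAT2 2.1.0 and featureCounts 1.6.0 on GRCh38, per the submitters' processing notes. The annotation, strand setting and multi-mapping rule were not given in the sources used here. Of 58884 IDs, 58472 had a symbol in the symbol table and 58611 were in GENCODE 29, the source of gene types and coordinates.

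TMM factors over all genes (edgeR 4.0.16, R 4.3.3) gave effective library sizes of 21281300 and 15873737. Ratios add 0.5 to each count, and intervals are exact Clopper-Pearson 95% intervals of the THZ1 share. Since reads that carry no molecular identifier can be copies of 1 molecule, intervals and floors cover counting error only. Pairs use exact conditional odds ratio intervals (scipy 1.17.1). TPM uses the summed length of all annotated exons of a gene, and TPM is compared only within a library. Shares and sums of TPM thus depend on that length. All tested members are named, and up to 3 called genes in each direction per list with 100 or more counts. Members, lists and rules were chosen with earlier results of these data known. Alternatives were other scalings (DESeq2 1.42.0 size factors among them), count minimums, added counts, a stricter call, thinning and subsets of members.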

Additional observations from a re-analysis of the deposited data

How the results depend on the processing

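Calls depended mainly on the scaling. With total counts 21 members (10 demethylases and 11 methyltransferases) and 4260 of all tested genes were lower, and 368 of all tested genes higher. On the mitochondrial reference 33 members (16 and 17) and 10000 of all tested genes were lower and 88 higher. With the upper quartile 9 members were lower (26.5%) and 2 of 34 (KDM1B and SETD9) higher. Of all 12457 tested genes 1761 were then lower and 3037 higher. All genes called higher numbered 1846 with a minimum of 1 count, 607 with a minimum of 100 and 498 with an interval bound of at least 2-fold, beside 936 on the main setting. DESeq2 size factors added KDM4B to the lower members (38.2%), beside 2965 of all tested genes. The stricter call left 8 lower members (23.5%), without KDM4A, KDM4D, KMT2B and KMT5C, beside 2113 of all 12457 tested genes. A minimum of 100 counts left 9 of 31 (29%), beside 2381 of 10268. TMM over the tested genes and the removal of members that overlap another coding gene were both chosen after seeing the data. They gave 10 of 34, beside 2657 of all tested genes, and 10 of 29. Adding 5 counts, thinning and a minimum of 1 count kept 12, beside 2774, 2937 and 3536 of all tested genes. Scalings shift all ratios alike and the stricter call changes no ratio, so neither could move the difference between the class medians of 0.02. It was 0.03 over members with a histone lysine only and −0.06 without members that overlap another coding gene. The 12 members called lower on the main setting were below 0 under each of the settings that tested them. Members not called there did change sign, KDM1B and SETD9 among them (1.36 and 1.02 with the upper quartile, −0.76 and −1.10 on the mitochondrial reference). No paired analysis was possible because each group had 1 library, and no replicate could be left out. Depth limits KDM4D, KDM8 and KMT5C most, with 59, 50 and 33 counts in DMSO.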
